A study of Mus musculus with 12 samples.

Results

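The genes described are 10 members of the integrated stress response, the pathway that runs through the transcription factors ATF4 and CHOP: Atf4, Atf5, Ddit3 (which encodes CHOP), Trib3, Chac1, Asns, Psat1, Sesn2, Ppp1r15a and Cebpg. They were picked by symbol from the deposited tables, which hold 24934 genes, and all 10 were found there and among the 13249 genes tested. RNA was sequenced from BV2 cells, an immortalised mouse line used as a model of microglia, in 3 groups of 4 libraries. The labels name no treatment for Control, OGD was deprivation of oxygen and glucose and then re-oxygenation, used in culture to model stroke, and the Acacetin group was given the plant flavone acacetin at 10 µM. The design text places acacetin after the deprivation step, although that group's own label names acacetin alone, and the length of the deprivation is not given in the sources used here. Nothing in the labels ties the libraries of a group to separate cultures, so the p-values measure the spread between these libraries, which may be technical.

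In the integrated stress response, kinases that sense amino acid shortage, misfolded protein in the endoplasmic reticulum, heme shortage or mitochondrial damage, or viral RNA all phosphorylate the translation factor eIF2. General protein synthesis then drops, while mRNAs with short reading frames in their leaders, those of ATF4, ATF5, CHOP and PPP1R15A among them, are translated better. ATF4 pairs with C/EBP proteins and switches on genes for amino acid supply, and CHOP is best known as a regulator of death under lasting stress. RNA sequencing measures the mRNA of these factors, not their protein or the phosphorylation of eIF2.

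ATF4 paired with a C/EBP protein binds composite sites whose core is TGATGNAA, and related factors bind the cyclic AMP response element TGACGTCA. Promoter windows from RefSeq on mouse build GRCm38.p6, 250 bases before to 50 bases after a start site, were found for all 10 genes (12 windows, since Atf5 and Psat1 have 2 each). The deposited tables use another build and give no positions, so these coordinates belong to RefSeq alone. Each window was searched on both strands for TGATGNAA, TGACGTCA and the endoplasmic reticulum stress element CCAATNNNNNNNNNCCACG. The 4 windows that hold a match are printed because they carry the textbook ATF4 and CREB elements, and that of Ddit3 because its mRNA moved most. Capitals mark the match and the remaining bases are in lower case, written 5′ to 3′ along the gene's strand.

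The promoter of Asns lies at chr6:7693160-7693459 on the minus strand, that of Chac1 at chr2:119350992-119351291 on the plus strand and that of Trib3 at chr2:152344011-152344310 on the minus strand. Ppp1r15a lies at chr7:45526219-45526518 on the minus strand and Ddit3 at chr10:127290543-127290842 on the plus strand.
Asns: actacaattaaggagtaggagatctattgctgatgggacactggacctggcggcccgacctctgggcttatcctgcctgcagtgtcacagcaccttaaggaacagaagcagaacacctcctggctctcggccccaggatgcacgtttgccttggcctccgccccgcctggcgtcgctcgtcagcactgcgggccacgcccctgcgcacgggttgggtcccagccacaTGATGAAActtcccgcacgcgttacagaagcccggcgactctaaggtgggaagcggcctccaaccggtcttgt
Chac1: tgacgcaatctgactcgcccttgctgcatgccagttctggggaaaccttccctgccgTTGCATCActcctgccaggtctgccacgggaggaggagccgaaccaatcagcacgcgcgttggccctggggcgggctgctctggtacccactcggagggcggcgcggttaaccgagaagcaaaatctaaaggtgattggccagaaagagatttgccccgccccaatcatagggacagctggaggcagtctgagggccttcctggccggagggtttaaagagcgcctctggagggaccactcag
Trib3: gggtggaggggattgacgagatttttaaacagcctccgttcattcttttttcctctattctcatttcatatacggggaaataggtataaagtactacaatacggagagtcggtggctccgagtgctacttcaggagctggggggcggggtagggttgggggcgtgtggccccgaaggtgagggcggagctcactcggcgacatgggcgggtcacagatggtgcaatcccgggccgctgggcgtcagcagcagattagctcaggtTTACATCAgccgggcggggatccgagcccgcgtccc
Ppp1r15a: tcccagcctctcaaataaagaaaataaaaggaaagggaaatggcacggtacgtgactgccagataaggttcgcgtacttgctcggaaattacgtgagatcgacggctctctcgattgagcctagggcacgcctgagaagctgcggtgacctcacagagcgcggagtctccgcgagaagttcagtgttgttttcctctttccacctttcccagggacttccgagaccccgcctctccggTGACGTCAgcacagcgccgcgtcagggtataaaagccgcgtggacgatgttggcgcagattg
Ddit3: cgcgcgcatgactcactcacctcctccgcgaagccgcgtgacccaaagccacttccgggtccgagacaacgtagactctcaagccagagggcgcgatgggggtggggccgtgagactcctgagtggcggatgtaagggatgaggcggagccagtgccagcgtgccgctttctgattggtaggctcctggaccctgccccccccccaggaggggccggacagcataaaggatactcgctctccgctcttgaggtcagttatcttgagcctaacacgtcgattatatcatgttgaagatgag

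The match in Asns spans -23 to -16 from the start site on the gene's own strand, and it is the element through which ATF4 is known to induce this gene. The matches in Chac1 (-193 to -186) and Trib3 (15 to 22, just inside the transcript) are on the opposite strand and read TTGCATCA and TTACATCA as printed. Ppp1r15a holds TGACGTCA at -12 to -5. No 2 matches overlap. TGATGNAA occurs in 3.97% of 32851 mouse promoter windows of this length, TGACGTCA in 1.79% and the endoplasmic reticulum stress element in 0.119%. The remaining windows hold none of these letters, which says nothing about sites elsewhere.

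Library depth ran from 16427886 to 32693066 counted reads. Reads of 18S ribosomal RNA took 13.1% of OGD 2 and 21.3% of OGD 3, against 0.137% to 1.86% of the other 10 libraries. CPM (read counts scaled to libraries of 1 common size by the TMM method) are compared between libraries, and FPKM (the authors' values, scaled by depth and gene length) between genes. The microglial identity of the line was checked on 15 markers, of which 13 averaged over 1 CPM, among them the myeloid factor gene Spi1 at 321 CPM, while the homeostatic microglial receptor gene P2ry12 was nearly absent at 0.0467 CPM. Of the markers of 6 other cell types, Syn1 (18.5 CPM) and Mbp (1.38 CPM) alone averaged over 1 CPM. Because whole cultures were sequenced, fewer cells making a transcript and less of it per cell cannot be told apart.

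OGD against Control asked whether the pathway's genes moved with deprivation and re-oxygenation. They did not move as 1 group. Ddit3 fell to 0.268 of its Control level, Atf5 rose by a factor of 2.02, Ppp1r15a rose by a factor of 1.52, and the other 7 members were not called by edgeR at an adjusted p under 0.05. Thus 2 of 10 members rose and 1 fell, where 16.2% of all tested genes rose and 12.6% fell (28.8% called in either direction). The share of members called is near that of all genes. Of all tested genes 2148 rose and 1665 fell, and with limma on log2(FPKM + 1) 911 rose and 1920 fell. Once 18S reads were left out of the FPKM depth, limma called 1817 genes higher and 1961 lower. The same 3 members did not overlap between the groups on CPM, 2 higher and 1 lower, where 19.0% of tested genes were higher without overlap and 17.0% lower (36.0% in all). The median log2 fold change of the members was 0.08, and that of all tested genes 0.03.

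**Figure D1:**
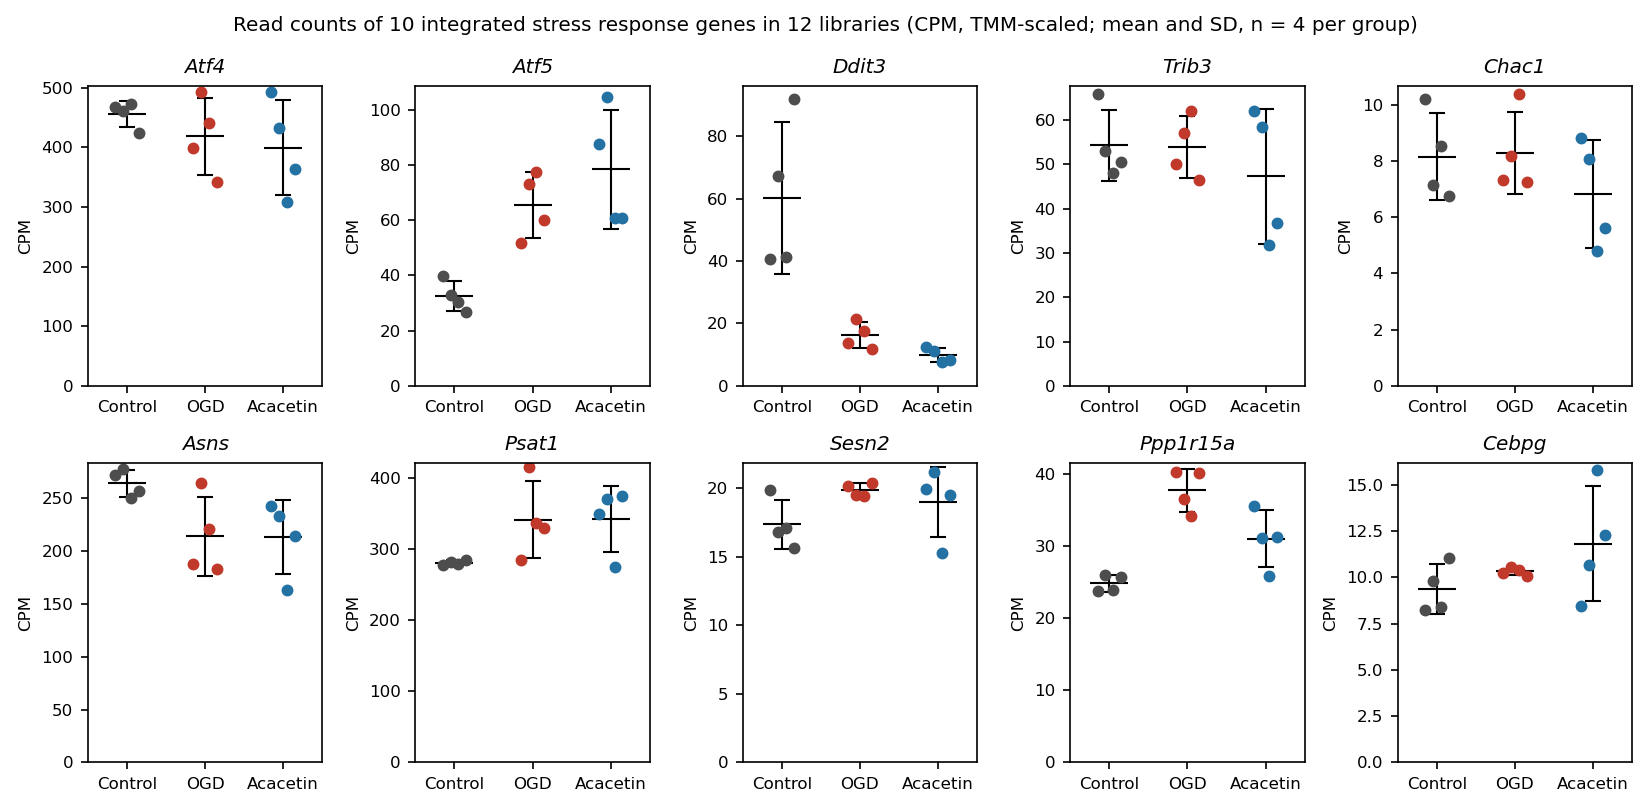
TMM-scaled CPM (vertical axis, from 0) of the 10 genes in each of the 12 libraries by group, with 1 point per library and bars for the mean and SD (n = 4). The 4 Control libraries of Ddit3 sit at 40.6 to 91.8 CPM and all OGD and Acacetin libraries at or below 21.4, while Atf5 shows the opposite order.

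Atf4 (ENSMUSG00000042406.9, chromosome 15) encodes the central transcription factor of the pathway. Its CPM in Control 1 to 4 was 468, 461, 473 and 424. In OGD 1 to 4 it was 399, 494, 440 and 341, and in Acacetin 1 to 4 it was 494, 432, 309 and 364. The groups overlapped on CPM, and on that scale the OGD and Acacetin libraries were spread more widely than the Control libraries. The group means were 456 ± 21.9, 419 ± 64.4 and 400 ± 80.4 CPM (SD, n = 4). The log2 fold change of OGD against Control was -0.12 ± 0.16 (SE) with an edgeR adjusted p of 0.615, and its 95% interval ran from -0.47 to 0.22.

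On the authors' FPKM scale, which counts 18S reads in the depth, Atf4 stood at 161 to 168 in Control and 106 to 151 in OGD, without overlap. The lowest value was that of OGD 3, the library richest in 18S reads. Limma on log2(FPKM + 1) gave -0.29 with an adjusted p of 0.106, and -0.16 with 0.122 once 18S reads were left out of the depth. Over 20 alternative analyses the log2 fold change lay between -0.30 and -0.04, with no call. The Acacetin libraries stood at 146 to 167 FPKM, with an SD of 5.45% of the mean against 20.1% on CPM.

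Ddit3 (ENSMUSG00000025408.16, chromosome 10) encodes CHOP, the C/EBP-family factor that ATF4 induces. Its CPM was 40.6, 67.1, 41.4 and 91.8 in Control 1 to 4. It was 13.9, 21.4, 17.6 and 11.9 in OGD 1 to 4 and 12.3, 11.1, 7.72 and 8.31 in Acacetin 1 to 4. Every Control library lay above every other library, and the Control libraries differed most among themselves, with Control 2 and Control 4 high. The mean fell from 60.2 ± 24.4 to 16.2 ± 4.20 CPM (SD, n = 4), and the log2 fold change was -1.90 ± 0.28 (edgeR adjusted p = 0.000319). Without Control 4 it was -1.64 with an adjusted p of 0.000796. The fall was called in each of the 20 alternative analyses, at log2 fold changes from -2.22 to -1.64.

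In the mouse genome Ddit3 overlaps Mars1, the gene of methionyl-tRNA synthetase, on the opposite strand. The sources used here do not say whether the counting used strand. Mars1 had a mean of 133 CPM in Control against 134 CPM in OGD. Its log2 fold change was 0.02 ± 0.13 (edgeR adjusted p = 0.935), a change far smaller than that of Ddit3. Mars1 was the more abundant of the 2 genes, and whether part of the Ddit3 reads belongs to it was not tested.

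Atf5 (ENSMUSG00000038539.16, chromosome 7) encodes the factor closest to ATF4, known for inducing mitochondrial chaperones. It moved the other way from Ddit3. Its CPM was 39.7, 32.8, 30.5 and 26.8 in Control 1 to 4, 51.7, 73.1, 77.6 and 60.0 in OGD, and 87.6, 105, 60.9 and 60.8 in Acacetin. All 4 OGD and all 4 Acacetin libraries were above all 4 Control libraries. The mean went from 32.4 ± 5.46 to 65.6 ± 11.9 CPM (SD, n = 4), a log2 fold change of 1.01 ± 0.20 (edgeR adjusted p = 0.00199). It was 0.79 with an adjusted p of 0.0306 without OGD 2 and OGD 3. Atf5 overlaps Nup62, a nuclear pore gene on the opposite strand, which averaged 141 and 186 CPM (log2 fold change 0.41 ± 0.18, adjusted p = 0.106), so part of the Atf5 reads could belong to it if strand was not used.

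Cebpg encodes C/EBP gamma, the partner with which ATF4 forms a heterodimer on many amino acid genes. Its CPM was 8.23 to 11.1 in Control and 10.1 to 10.6 in OGD, where the 4 libraries were nearly equal. It was 8.45, 10.7, 15.8 and 12.3 in Acacetin 1 to 4, a spread that covered both other groups. The log2 fold change of OGD against Control was 0.14 ± 0.19 (edgeR adjusted p = 0.639). On FPKM the OGD libraries were less even, at 1.05 to 1.88.

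Ppp1r15a (ENSMUSG00000040435.13, chromosome 7) encodes GADD34, the stress-induced subunit that brings a phosphatase back to eIF2 and closes the feedback loop. Its CPM was 23.8, 26.0, 23.9 and 25.7 in Control 1 to 4, and 40.2, 36.5, 34.1 and 40.2 in OGD. In Acacetin 1 to 4 it was 35.6, 31.2, 25.9 and 31.2. On CPM, OGD lay wholly above Control, and Acacetin lay between them with an overlap on each side. Its mean rose from 24.9 ± 1.17 to 37.8 ± 2.97 CPM (SD, n = 4; log2 fold change 0.60 ± 0.12, edgeR adjusted p = 0.00250).

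The rise of Ppp1r15a was not called on FPKM, where OGD 1 to 4 stood at 12, 8.19, 6.58 and 14.3 and Control at 6.55 to 8.10. The low values were those of the libraries rich in 18S reads. Limma on log2(FPKM + 1) gave 0.40 with an adjusted p of 0.158, and 0.52 with 0.0162 once 18S reads were left out of the depth. On counts, the rise was 0.70 without OGD 2 and OGD 3 (edgeR adjusted p = 0.00650). The Acacetin libraries stood at 8.99 to 10.9 FPKM, all above Control.

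Trib3 and Chac1 are targets of ATF4 and CHOP. TRIB3 is a pseudokinase that restrains ATF4, and CHAC1 degrades glutathione. Trib3 ranged over 48.1 to 66.0 CPM in Control, 46.4 to 62.1 in OGD and 31.8 to 62.1 in Acacetin. Chac1 ranged over 6.77 to 10.2, 7.24 to 10.4 and 4.81 to 8.83 CPM. The ranges of Control and OGD nearly coincided for each gene. The log2 fold changes of OGD against Control were -0.01 ± 0.20 for Trib3 (95% interval -0.45 to 0.42) and 0.02 ± 0.23 for Chac1 (-0.47 to 0.51). Their sign changed between analyses, and a change of either sign anywhere within these intervals is compatible with the values.

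Sesn2 encodes sestrin 2, a leucine sensor that restrains mTORC1. Its CPM was 15.7 to 19.9 in Control, 19.4 to 20.4 in OGD and 15.3 to 21.2 in Acacetin. On CPM the 4 OGD libraries were close together, within the Acacetin range and at the top of the Control range or just above it. On FPKM they ran from 3.17 to 6.14. The log2 fold change of OGD against Control was 0.19 ± 0.14 (edgeR adjusted p = 0.320).

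Asns (ENSMUSG00000029752.13, chromosome 6) encodes asparagine synthetase and is the classical amino acid response gene, with the ATF4 element printed above close to its start site. Its CPM was 272, 278, 251 and 257 in Control 1 to 4. It was 188, 265, 221 and 183 in OGD and 243, 233, 164 and 214 in Acacetin. On CPM, OGD 2 alone among the OGD libraries reached the Control range, and all 4 Acacetin libraries lay below it. On FPKM, OGD (45.7 to 70.1) lay wholly below Control (76.8 to 87.1), and Acacetin (65.85 to 80.4) overlapped Control. The log2 fold change of OGD against Control was -0.30 ± 0.15 (edgeR adjusted p = 0.159). It passed the threshold in 6 of 20 alternatives, with -0.51 and an adjusted p of 0.0285 without OGD 2 and OGD 3, and -0.34 and 0.0209 with limma on FPKM with 18S reads left out of the depth.

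Psat1 (ENSMUSG00000024640.10, chromosome 19) encodes the aminotransferase of serine synthesis, also a target of ATF4. Its CPM was 278, 282, 280 and 286 in Control 1 to 4, 284, 415, 337 and 330 in OGD and 350, 371, 275 and 375 in Acacetin. Control was the tightest CPM group of any member relative to its mean (SD 1.13% of the mean). On FPKM that SD was 7.19%, against 2.08% for Atf4 in Control. Most treated libraries were above Control, but OGD 1 fell within the Control range and Acacetin 3 below it. The log2 fold change of OGD against Control was 0.28 ± 0.14 (edgeR adjusted p = 0.166).

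**Figure D2:**
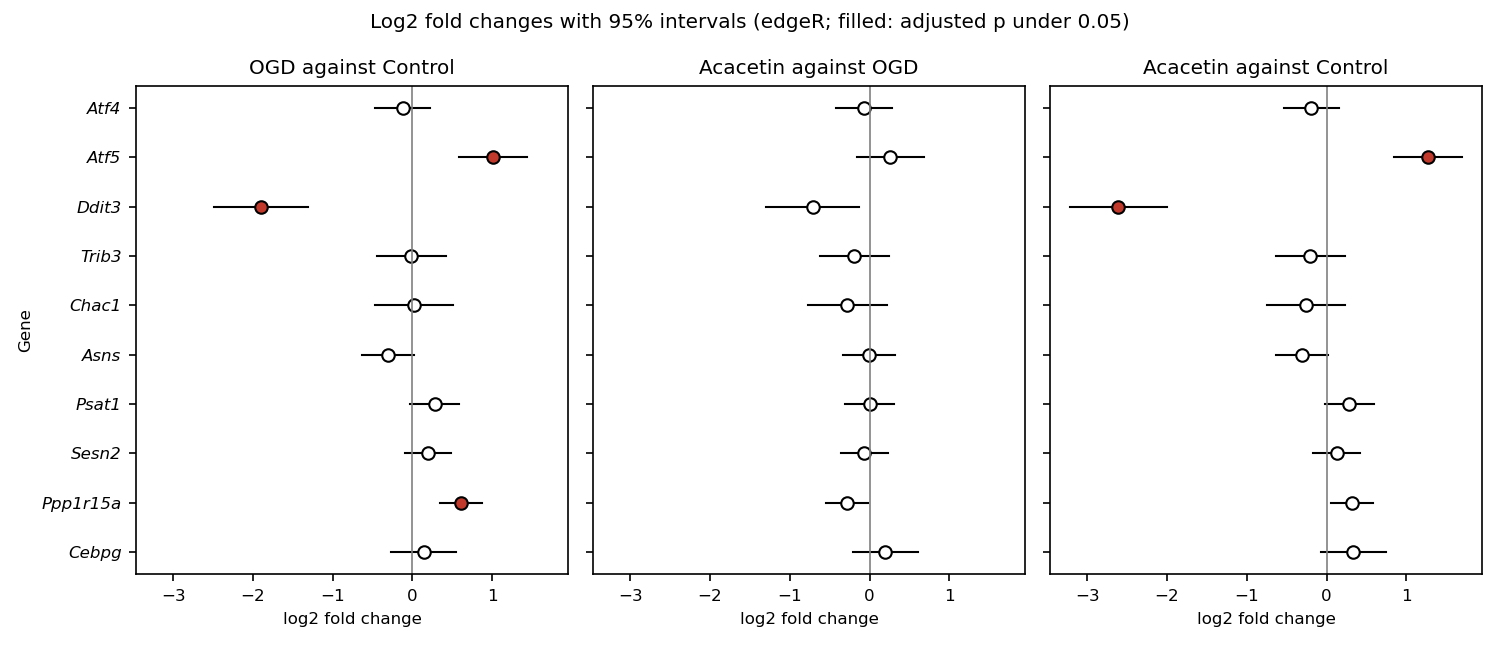
Log2 fold change (horizontal axis) of each gene in the 3 comparisons, with 95% intervals from edgeR and filled points at an adjusted p under 0.05. Filled points stand for Atf5, Ddit3 and Ppp1r15a in OGD against Control and for Atf5 and Ddit3 in Acacetin against Control, and there is none in Acacetin against OGD.

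Acacetin against OGD asked which members differed once acacetin was given. EdgeR called 0 of the 10 members and 0 of all 13249 genes (0% called), and DESeq2 called 0 members and 32 genes. At an unadjusted p under 0.05 there were 2 members, Ddit3 and Ppp1r15a, and 685 genes, or 5.17% of those tested. The groups overlapped for all 10 members on CPM, where 2.35% of tested genes did not overlap (0.468% higher and 1.88% lower).

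The mean of Ddit3 was 9.88 ± 2.22 CPM in Acacetin against 16.2 ± 4.20 CPM in OGD. The highest Acacetin library, at 12.3, was just above the lowest OGD library, at 11.9. The log2 fold change was -0.71 ± 0.27 (95% interval -1.30 to -0.13, edgeR adjusted p = 0.829, unadjusted 0.0205). Its sign was the same in all 21 alternatives, at -0.84 to -0.35, and the adjusted p was 0.175 or more in each. Ppp1r15a averaged 37.8 ± 2.97 and 31.0 ± 3.95 CPM, with a log2 fold change of -0.29 ± 0.12 (adjusted p = 0.829), but on log2(FPKM + 0.1) it was 0.00, where the median of all tested genes was 0.24. Atf5 averaged 65.6 ± 11.9 and 78.5 ± 21.5 CPM (0.26 ± 0.20, adjusted p = 0.837), and Atf4 had -0.07 ± 0.16 (adjusted p = 0.958).

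For the other 6 members the log2 fold changes ran from -0.28 (Chac1) to 0.20 (Cebpg), and each 95% interval included 0. Asns and Psat1, the amino acid synthesis genes, had -0.01 ± 0.15 and 0.00 ± 0.14. Acacetin 3 was the lowest library of its group for 8 of the 10 members, the exceptions being Atf5 and Cebpg. It also had the largest TMM factor of all libraries (1.32), and on FPKM, which uses no such factor, it was the lowest for 3 members, Atf4, Trib3 and Chac1. Without Acacetin 1 and Acacetin 3, a choice made after the data were seen, edgeR again called 0 members.

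Acacetin against Control uses the same Control libraries as OGD against Control, so their agreement is not independent. Atf5 was called higher and Ddit3 lower, 1 member each way, where 14.0% of tested genes rose and 12.9% fell (26.9% in either direction). The log2 fold changes were 1.27 ± 0.20 for Atf5 (edgeR adjusted p = 0.000730) and -2.61 ± 0.28 for Ddit3 (adjusted p = 0.000133). Ddit3 in Acacetin stood at 0.164 of its Control level. Both calls were kept in all 20 alternatives.

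Ppp1r15a had 0.32 ± 0.12 in Acacetin against Control with an adjusted p of 0.0700, and it passed the threshold in 6 of 20 alternatives, among them DESeq2 (0.0183), the analysis without Control 4 (0.0431) and that without Acacetin 3 (0.0359). On CPM, Atf5 was higher without overlap and Ddit3 and Asns lower, where 12.1% of tested genes were higher and 13.5% lower without overlap (25.7% in all). Asns had a log2 fold change of -0.31 ± 0.15 and was not called (edgeR adjusted p = 0.148). On FPKM the groups of Asns overlapped, and Ppp1r15a was higher without overlap. Cebpg had 0.34 ± 0.19 (adjusted p = 0.201, and 0.0417 without Acacetin 1). It was called in 1 of 20 alternatives, this one, where 5818 genes were called in place of 3559. Psat1 had 0.28 ± 0.14 (adjusted p = 0.154, and 0.0404 with limma on FPKM with 18S reads left out of the depth). Psat1 too was called in 1 of 20 alternatives.

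Levels per gene length place Atf4 first among the members. In Control the mean FPKM was 165 for Atf4, 82.3 for Asns, 56.4 for Psat1, 30.4 for Ddit3 and 21.7 for Trib3. It was 13.8 for Atf5, 7.22 for Ppp1r15a, 4.25 for Sesn2, 4.22 for Chac1 and 1.43 for Cebpg. Neighbours in this order were separate in all 4 libraries, except that Ddit3 and Trib3 overlapped, and so did Sesn2 and Chac1.

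In OGD Ddit3 stood at rank 7 in place of rank 4, with a mean FPKM of 7.11, and Atf5 at rank 4 in place of rank 6, with 25.1. The ranks of both were the same in Acacetin, at 5.32 and 36.4 FPKM. Psat1 and Asns also changed places, at 62.3 and 60.0 FPKM in OGD and 75.7 and 72.6 in Acacetin, but their libraries overlapped in both groups. In OGD the libraries of Atf5 and Trib3 overlapped too, as did those of neighbours from Ppp1r15a down to Chac1, and in Acacetin those of Ddit3, Sesn2 and Chac1. Atf4 stayed first in every group and Cebpg last.

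Ratios of 2 members within a library do not depend on its depth, and they were chosen from the 45 pairs after their values were seen, so they are a description with no test. The ratio of Atf4 to Ddit3 in FPKM was 8.37, 4.99, 8.29 and 3.36 in Control 1 to 4, 20.9, 16.7, 18.2 and 20.8 in OGD, and 29.0, 28.1, 29.1 and 31.8 in Acacetin. The 3 groups did not overlap. OGD and Acacetin did not overlap in 8 of the 45 pairs, each of which holds Atf5 or Ddit3 and none of which holds Ppp1r15a. Of the 21 pairs without Atf5, Ddit3 and Ppp1r15a, the 3 members called in OGD against Control, 0 were without overlap. The ratio of Asns to Psat1 was 1.40 to 1.54 in Control, 0.863 to 1.03 in OGD and 0.888 to 1.08 in Acacetin. Neither gene was called singly. Control and OGD did not overlap in 24 of the 45 pairs, and in 3 of the 21 pairs without Atf5, Ddit3 and Ppp1r15a. For Control and Acacetin these counts were 23 and 3. The share among pairs of all tested genes was not computed, so the pair counts have no background beside them. The shares of single genes given above do not apply to ratios.

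**Figure D3:**
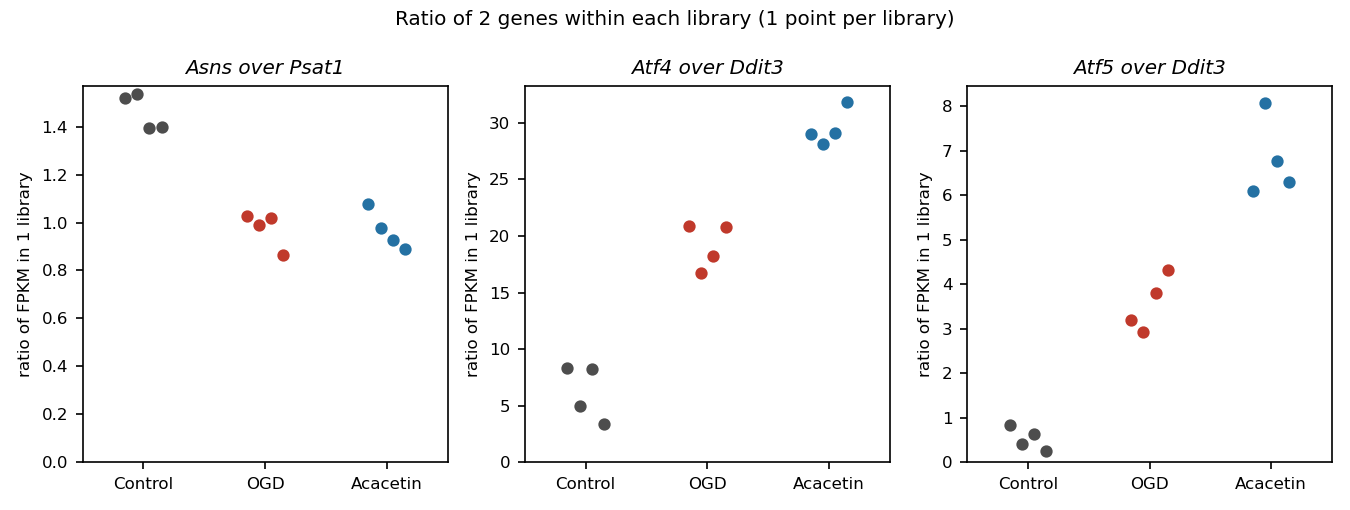
Ratio of the FPKM of 2 genes within each library (vertical axes, from 0) for Asns over Psat1, Atf4 over Ddit3 and Atf5 over Ddit3, with 1 point per library. Atf4 over Ddit3 lies at 3.36 to 8.37 in Control, 16.7 to 20.9 in OGD and 28.1 to 31.8 in Acacetin, and Atf5 over Ddit3 at 0.251 to 0.842, 2.93 to 4.32 and 6.10 to 8.06.

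Likeness of profiles was measured as the root mean square difference of log2 CPM, each gene centred on its own mean over the 12 libraries, among 9432 genes. Nearest to Atf4 were Amacr (0.0612), Cops6 (0.0637) and Czib (0.0651), against the 0.208 by which Atf4 itself varied. Nearest to Asns were Amacr (0.0997), Ndufa9 (0.109) and Atxn10 (0.110). Asns itself varied by 0.236. The genes near Atf4 and Asns thus follow the small differences of these 2 genes between libraries on CPM. That scale uses 1 TMM factor per library, shared by all its genes, from 0.780 (OGD 3) to 1.32 (Acacetin 3). In Acacetin, the SD of Atf4 was 20.1% of the mean on CPM and 5.45% on FPKM. How much of the likeness to Atf4 and Asns goes with the shared factor was not tested. Nearest to Ddit3 were Txnip (0.420), Lcn2 (0.420) and Dusp4 (0.438), against its own 1.14, and Txnip averaged 713 CPM in Control, 181 in OGD and 158 in Acacetin. Among the members, Atf4 and Asns were the closest pair (0.112), followed by Trib3 and Chac1 (0.116), and Atf5 and Ddit3 were the farthest apart (1.66).

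The rest of the pathway was taken from 8 lists with 116 symbols, of which 106 were tested. Their counts stand beside the 16.2% of all tested genes that rose and the 12.6% that fell in OGD against Control, and the list medians beside the 0.03 of all genes. Among the kinases and the relay that feeds them, 1 gene rose and 1 fell of 8, a share near the 28.8% of all genes called. Eif2ak1, the gene of the heme-regulated kinase HRI, rose from 14.8 ± 1.84 to 24.03 ± 2.31 CPM (log2 fold change 0.70 ± 0.14, edgeR adjusted p = 0.00230). Oma1, the mitochondrial protease that cuts DELE1 to activate HRI, fell from 11.8 to 5.17 CPM (-1.19 ± 0.21, adjusted p = 0.00113). DELE1's own gene had -0.08 (adjusted p = 0.738). The genes of PKR (Eif2ak2, 0.30), PERK (Eif2ak3, 0.19) and GCN2 (Eif2ak4, -0.31) were not called.

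Of 16 genes of eIF2, its exchange factor eIF2B and the phosphatase, 4 rose and 1 fell, also near the 28.8% of all genes. Ppp1r15b, the constitutive counterpart of Ppp1r15a, rose from 15.2 to 28.2 CPM (0.89 ± 0.16, adjusted p = 0.00127), so the genes of both phosphatase subunits were higher. Eif2b1, a subunit of the exchange factor, rose by 0.87 ± 0.15. Eif2s1, which encodes the phosphorylated subunit of eIF2, rose by 0.63 ± 0.19 (adjusted p = 0.0256, but 0.35 with 0.332 without OGD 2 and OGD 3).

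Of 12 genes of related bZIP factors, 2 rose and 1 fell (28.8% of all genes called). Atf3, another ATF4 target, fell from 105 to 66.6 CPM (-0.66 ± 0.16, adjusted p = 0.00655), in the same direction as Ddit3. The C/EBP genes Cebpd and Cebpa rose by 1.12 ± 0.22 and 0.96 ± 0.22, and Cebpb had 0.23 (adjusted p = 0.417).

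Genes of amino acid transport and synthesis were listed apart. Of 9 tested transporter genes 5 rose and 0 fell, all 9 log2 fold changes were above 0, and the list median was 0.66, where 16.2% of all tested genes rose and their median was 0.03. Slc1a5, a glutamine carrier, rose from 132 to 220 CPM (0.74 ± 0.13, adjusted p = 0.00103), Slc7a1, a carrier of arginine and lysine, by 0.83 ± 0.19, and Slc7a5, the light chain of the large neutral carrier, by 0.62 ± 0.17. Slc3a2, its heavy chain, had 0.24 (adjusted p = 0.345), and the cystine carrier gene Slc7a11 had 0.66 (adjusted p = 0.113). Without OGD 2 and OGD 3 the count was 3 rises, where 1130 of all tested genes rose in place of 2148. With limma on log2(FPKM + 1) the log2 fold changes of Slc1a5, Slc7a1 and Slc7a5 were 0.58, 0.48 and 0.47, and none was called (adjusted p from 0.052 to 0.230).

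Of 14 tested genes of amino acid synthesis and folate metabolism, 2 rose and 3 fell, with a median of -0.02 (16.2% and 12.6% of all genes). Shmt1, the cytosolic serine hydroxymethyltransferase gene, rose by 1.05 ± 0.17, and Gpt2, an alanine aminotransferase gene, fell by 1.01. Phgdh and Psph, which encode the enzymes before and after PSAT1 in serine synthesis, had -0.01 and 0.15, and the mitochondrial folate genes Shmt2 and Mthfd2 had 0.04 and 0.24, with no call among them. Of 14 tRNA synthetase and tRNA export genes, 3 rose and 1 fell (28.8% of all genes called), with Xpot (0.90 ± 0.19) and Tars (0.68 ± 0.18) first by p. Without OGD 2 and OGD 3, 1 of these rose and 0 fell. In that setting 1130 of all tested genes rose in place of 2148, and 894 fell in place of 1665.

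Of 16 other targets of ATF4 or CHOP, 3 rose and 4 fell, with a median of -0.44, where 16.2% of all tested genes rose and 12.6% fell. Ddit4, an inhibitor of mTORC1, fell from 32.2 to 11.2 CPM (-1.51 ± 0.34, adjusted p = 0.00469, but -1.13 with 0.0679 without OGD 2 and OGD 3). The secreted glycoprotein gene Stc2 rose by 1.20 ± 0.21, and Bcl2l11, which encodes the death factor BIM and is known as a CHOP target, rose from 35.05 to 64.9 CPM (0.89 ± 0.12, adjusted p = 0.000266) while Ddit3 fell. Eif4ebp1 (-0.48) and Nupr1 (-0.41) were not called.

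Of 17 genes of the other arms of the unfolded protein response, 6 rose and 0 fell, with a median of 0.36, where 16.2% of all tested genes rose and 12.6% fell. Dnajb11, whose product works with the chaperone BiP, had 44.6 CPM in Control and rose to 103 CPM (1.20 ± 0.12, adjusted p = 4.80e-05), and Syvn1, a ubiquitin ligase of protein degradation, rose by 0.97 ± 0.13. The BiP gene Hspa5 had 0.65 (adjusted p = 0.0938), Xbp1 0.36 (0.0704) and Atf6 -0.41 (0.292). Without OGD 2 and OGD 3 the count was 4 rises, where 1130 of all tested genes rose in place of 2148.

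**Figure D4:**
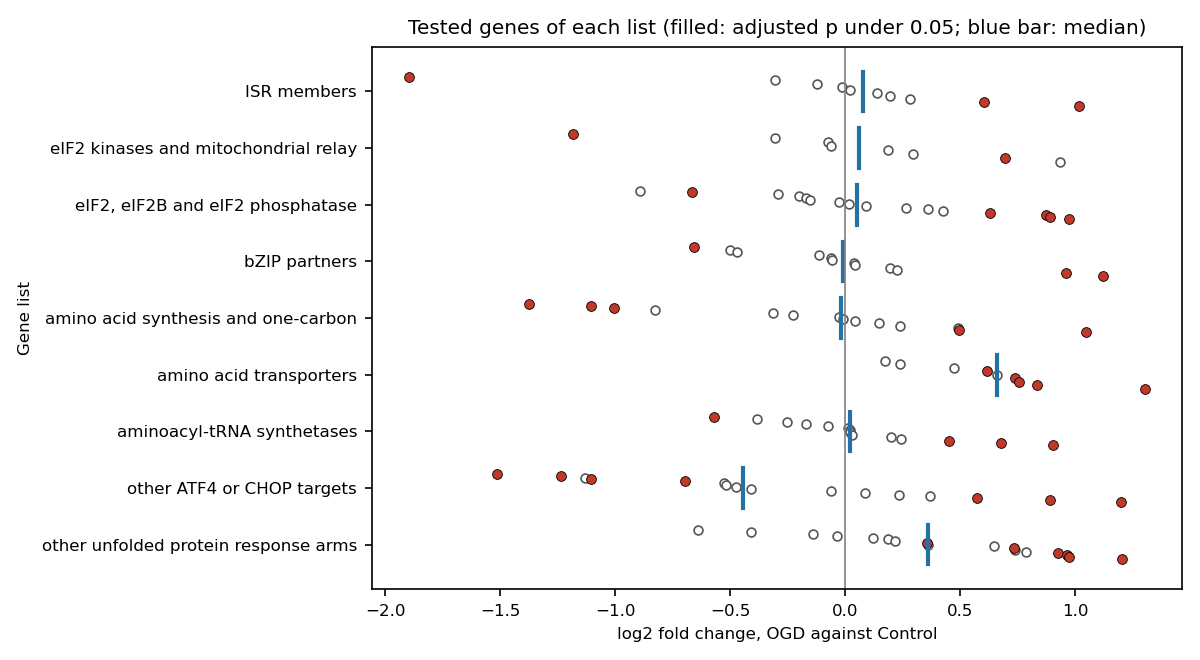
Log2 fold change of OGD against Control (horizontal axis) for each tested gene of the 10 members and the 8 lists, with filled points at an edgeR adjusted p under 0.05 and a blue bar at each list's median. The medians lie at 0.66 for amino acid transporters, 0.36 for the other arms of the unfolded protein response and -0.44 for other ATF4 or CHOP targets, with the remaining lists between -0.02 and 0.08.

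In Acacetin against OGD, 0 genes of any of the 8 lists were called by edgeR. In Acacetin against Control, with the same Control libraries, 7 of 9 transporter genes rose and 0 fell, and 7 of 17 genes of the other unfolded protein response arms rose and 0 fell, where 14.0% of all tested genes rose and 12.9% fell. The transporter count included Slc7a11, at 32.4 ± 15.2 CPM (SD) against 13.0 ± 1.88 in Control (1.32 ± 0.30, adjusted p = 0.00592). Acacetin 1 to 4 were spread widely for this gene, at 16.7, 36.8, 51.6 and 24.6 CPM, and Control ran from 11.4 to 15.3. The call was lost in 1 of 20 alternatives. Nupr1, a stress-induced chromatin factor gene, fell by 0.88 (adjusted p = 0.00530). For Slc7a11 and Nupr1 the difference between Acacetin and OGD was not called (adjusted p = 0.829 each). In OGD against Control, limma on log2(FPKM + 1) also did not call Eif2ak1, Eif2s1, Ppp1r15b, Xpot or Tars.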

How the data were processed

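Stranded mRNA libraries of 12 BV2 samples were read as pairs, per the labels' protocols. Per the submitters' processing notes, HISAT2, bcl2fastq, DESeq2 and the build GRCm39 were used, in roles not stated; the read counter, its annotation and the use of strand are not given in the sources used here. Whole-number read counts per gene (24934 genes) and FPKM values (24728 genes) were deposited by the authors; 0 columns lacked a matching sample.

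The main test was edgeR 4.0.16 under R 4.3.3: filterByExpr (minimum count 10, total 15), TMM scaling, 1 quasi-likelihood fit over all 12 libraries with a mean per group, two-sided tests, Benjamini-Hochberg adjustment over 13249 genes, calls at an adjusted p under 0.05. SE is the log2 fold change over the root of F. The procedure was tested on simulated data, and no outcome of that test is reported here. Depth limits counting error only, since PCR copies cannot be told from separate molecules in these tables. Alternatives were DESeq2 1.42.0, limma 3.58.1 on log2(FPKM + 1) or log2(FPKM + 0.1), other filters and scalings, removal of a gene-length trend, the replicate numbers as a block, and left-out libraries. Leaving out Acacetin 1 and 3, leaving 18S reads out of the FPKM depth, and counting the lists without OGD 2 and 3 were chosen after the data were seen.

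The members, lists and rules were chosen with earlier results of these data known. The named genes are the 10 members, a set of genes chosen by role, the 2 genes of each list with the smallest p in OGD against Control, and the 3 genes of at least 2 CPM most like Atf4, Ddit3 and Asns; Mars1 and Nup62 are named as overlapping genes, found in a mouse annotation of an earlier build.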

Additional observations from a re-analysis of the deposited data

Results flagged for a closer look

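No member was flagged. Among 141 groups of 4 libraries checked for a library far from the rest, of which chance alone flags about 1 in 20, 6 held one, all in genes of the pathway lists. Shmt2 (mitochondrial serine hydroxymethyltransferase) stood at 784 CPM in Control 1 and 521 to 559 in the other Control libraries. Nupr1 stood at 22.1 CPM in Control 1 against 30.2 to 31.2. Dnajb11 was high in Control 3, at 50.9 CPM against 42.0 to 43.3. Gpt2 was low in Acacetin 3, at 13.8 CPM against 19.4 to 19.6. Slc7a1 stood apart in OGD 4 (69.1 CPM against 40.5 to 43.8) and in Acacetin 1 (32.7 CPM against 53.5 to 54.4).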

How the results depend on the processing

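Over 610 alternative values of the members' 30 log2 fold changes, 541 kept their direction and side of the threshold, 14 gained a call, 3 lost one and 52 changed sign; 17 of the 30 kept both throughout. None of the values that changed sign was called. In OGD against Control, the log2 fold change of Trib3 was 0.0013 with the replicate block and -0.095 to 0.091 without single libraries. Chac1 was -0.023 with DESeq2, -0.020 with its size factors in edgeR, -0.0012 with no filter, -0.10 with limma on log2(FPKM + 1), -0.12 with 0.1 added, -0.10 with unfiltered limma, -0.16 without OGD 2 and OGD 3 and -0.11 to 0.14 without single libraries. In Acacetin against OGD, the log2 fold change of Atf4 was 0.22 with limma on log2(FPKM + 1), 0.22 with 0.1 added, 0.22 with unfiltered limma, 0.15 without OGD 2 and OGD 3, 0.0075 with the length trend removed, 0.090 with limma and 18S reads left out of the depth and -0.18 to 0.040 without single libraries. Trib3 was 0.052 with limma on log2(FPKM + 1), 0.054 with 0.1 added and 0.052 with unfiltered limma. Asns was 0.029 with DESeq2, 0.027 with its size factors in edgeR, 0.032 with no filter, 0.046 in a fit of 8 libraries, 0.28 with limma on log2(FPKM + 1), 0.29 with 0.1 added, 0.28 with unfiltered limma, 0.24 without OGD 2 and OGD 3, 0.064 with the length trend removed, 0.063 without Acacetin 1 and Acacetin 3, 0.16 with limma and 18S reads left out of the depth and -0.072 to 0.11 without single libraries. Psat1 was -0.073 to 0.11 without single libraries. Sesn2 was 0.17 with limma on log2(FPKM + 1), 0.21 with 0.1 added, 0.17 with unfiltered limma, 0.035 without Acacetin 1 and Acacetin 3, 0.074 with limma and 18S reads left out of the depth and -0.12 to 0.026 without single libraries. Ppp1r15a was 0.0015 with 0.1 added.

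Genes called in OGD against Control (3813) were 2537 with unfiltered limma, 1532 at a log2 fold change of at least 1 and 2024 without OGD 2 and OGD 3. In Acacetin against Control (3559) they were 2004 and 1441, and 2373 to 5818 without single libraries, the most without Acacetin 1. In Acacetin against OGD (0) they were 32 with DESeq2, 8 with no filter, 1 with 8 libraries, 2 with the replicate block, 1 with unfiltered limma, 4 with the length trend removed, 4 without Acacetin 1 and Acacetin 3, 6 with limma and 18S reads left out, and 0 to 9 without single libraries (9 without Acacetin 1). The cause was not tested. Samples with the same number did not all deviate together (correlations from -0.291 to 0.506), so the numbers were not read as pairs. The replicate block gave 4572, 2 and 4279 genes and 3, 0 and 3 members in OGD against Control, Acacetin against OGD and Acacetin against Control, where the member it added was Ppp1r15a (0.31, adjusted p = 0.0447). Of 41 called results of other named genes, 15 were kept in every alternative and 0 changed sign. Depth limits the least abundant members: Chac1 and Cebpg had as few as 133 reads in OGD 3.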

Other observations

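Some genes of the lists lie outside the rule for named genes and were chosen after their values were seen. In OGD against Control, Pck2, the gene of mitochondrial phosphoenolpyruvate carboxykinase, fell from 265 to 123 CPM (log2 fold change -1.11 ± 0.20, edgeR adjusted p = 0.00117). Pycr1, which encodes a proline synthesis enzyme, fell from 9.72 to 3.75 CPM (-1.38 ± 0.27). The stress cytokine gene Gdf15 fell from 67.6 to 28.7 CPM (-1.24 ± 0.22) and the death factor gene Bbc3 from 27.4 to 12.8 CPM (-1.10 ± 0.21). These 4 are known targets of ATF4 or CHOP picked because they fell. Of the 16 tested genes on the list of other targets, which holds Gdf15 and Bbc3, 3 rose and 4 fell, and of the 14 on the synthesis list, which holds Pck2 and Pycr1, 2 rose and 3 fell. The amino acid carrier gene Slc38a2, another such target, rose from 15.7 to 38.7 CPM (1.30 ± 0.36, adjusted p = 0.0151, and 0.0559 without OGD 2 and OGD 3).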
